A study of Mus musculus with 2 samples.

Results

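The 44 genes described here encode the machinery that copies DNA and the machinery that separates the copies, and comprise 13 replication genes and 31 mitosis genes of the 32285 genes in the count tables. They were listed by name, with earlier results of these data known, and all 44 symbols were found exactly once. The replication genes were sorted into the subunits of the MCM helicase (Mcm2 to Mcm7), fork and nucleotide genes (Pcna, Rrm1, Rrm2 and Pola1) and genes of repair and chromatin (Brca1, Dtl and Atad2). The mitosis genes were sorted into chromosome and kinetochore genes, spindle genes, cytokinesis genes, cyclins and the DNA glycosylase gene Neil3, which was placed with repair and chromatin.

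Nuclei came from frozen whole colon of mice with chronic colitis caused by dextran sodium sulfate (DSS), a polymer that injures the epithelium. Mice of 8 to 12 weeks received 4 cycles of 2% DSS in drinking water for 3 days, each followed by 4 days of recovery. The HIF-1α KO group (Ncr1cre+ Hif-1α fl+/fl+) carried a Cre recombinase under the Ncr1 (NKp46) promoter, which deletes the loxP-flanked Hif1a gene in NKp46+ innate lymphoid cells and not in the epithelium. The WT group carried no Cre, and whether its Hif1a alleles were loxP-flanked is not given in the sources used here. Tissue of 3 animals per genotype was pooled into 1 library, so no difference between genotypes had a replicate check, no test was made, and genotype, pool and library cannot be told apart. After filtering, the WT library held 4884 nuclei with 13259430 unique molecular identifiers (UMIs, counts of captured RNA molecules) and a median of 2058.5 UMIs per nucleus. The HIF-1α KO library held 4702 nuclei with 23605502 UMIs and a median of 4197.0. Levels are given as counts per 1000000 UMIs of the same nuclei (CPM). Values in brackets are exact 95% Poisson intervals, which measure counting error and leave out how animals differ. Hif1a itself stood at 172 CPM in WT and 199 CPM in HIF-1α KO nuclei, which does not check the labels because NKp46+ cells are rare in whole colon. A total of 3 barcodes occurred in both libraries. Doublets were limited only by an upper limit of 5000 genes per nucleus, and no doublet caller was run.

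In the cell cycle, the MCM helicase is loaded on DNA in G1 phase and opens it in S phase, where DNA polymerase alpha (Pola1) primes the new strands and the clamp Pcna holds the polymerases. Chromosomes are then condensed and untangled, attached to the spindle through the kinetochore and pulled apart, and the cell is cleaved through a contractile ring. In the colon these steps take place in the lower crypt, where stem cells and their transit-amplifying progeny divide, whereas cells near the surface have left the cycle. Replication genes are classically transcribed in G1 and S phase from promoters bound by E2F factors, and many mitosis genes in G2 phase from promoters with a cell cycle homology region (CHR) and CCAAT boxes.

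Promoters were therefore examined first, because the 2 groups of genes are known to be timed by different promoter elements. RefSeq promoter windows on GRCm38.p6, from 250 bases before to 50 bases after the start site, matched 39 of the 44 genes in 42 windows. Aurkb, Mcm4, Tpx2, Ccna2 and Atad2 had no entry. The words searched on both strands were TTTCCCGC, TTTCGCGC, TTTGGCGC and TTTGCCGC for E2F, TTTGAA and TTCGAA for the CHR, and CCAAT. An E2F word occurred in 50% of the 12 windows of replication genes, in 3.33% of the 30 windows of mitosis genes and in 2.26% of all 32851 windows. A CHR word showed the opposite order, with 16.7% of replication windows, 76.7% of mitosis windows and 19.2% of all windows. CCAAT was present in 100% of replication windows, 70.0% of mitosis windows and 37.4% of all windows. The short CHR and CCAAT words are frequent by their length alone, and a match is a description of the letters and not a binding site.

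The 150 bases before the start site are shown for the 3 replication genes and the 3 mitosis genes with most UMIs that hold an E2F or a CHR word there, respectively, to let the difference between the groups be read. Each is written 5′ to 3′ on the strand of its gene, with E2F, CHR and CCAAT words in capitals, also where they lie on the other strand. Pola1 lies at chrX:93632156-93632305 (minus strand), Dtl at chr1:191575545-191575694 (minus strand) and Mcm6 at chr1:128359706-128359855 (minus strand). Top2a lies at chr11:99024190-99024339 (minus strand), Mki67 at chr7:135716380-135716529 (minus strand) and Kif15 at chr9:122950931-122951080 (plus strand).
Pola1: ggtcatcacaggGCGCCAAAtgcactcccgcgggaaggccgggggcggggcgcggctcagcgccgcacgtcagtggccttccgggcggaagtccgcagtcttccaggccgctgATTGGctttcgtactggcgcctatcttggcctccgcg
Dtl: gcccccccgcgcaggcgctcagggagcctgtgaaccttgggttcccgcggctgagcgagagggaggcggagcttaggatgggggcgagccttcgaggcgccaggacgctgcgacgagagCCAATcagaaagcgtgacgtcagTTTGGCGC
Mcm6: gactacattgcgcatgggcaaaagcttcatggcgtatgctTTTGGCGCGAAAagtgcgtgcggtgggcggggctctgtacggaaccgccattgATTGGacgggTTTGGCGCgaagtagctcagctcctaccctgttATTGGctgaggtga
Top2a: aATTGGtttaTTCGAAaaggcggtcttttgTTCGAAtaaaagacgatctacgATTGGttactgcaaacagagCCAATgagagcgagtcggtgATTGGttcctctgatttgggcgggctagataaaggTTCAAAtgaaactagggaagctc
Mki67: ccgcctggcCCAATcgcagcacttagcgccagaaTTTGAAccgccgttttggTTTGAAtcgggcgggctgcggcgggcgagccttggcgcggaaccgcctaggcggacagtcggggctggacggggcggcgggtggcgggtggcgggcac
Kif15: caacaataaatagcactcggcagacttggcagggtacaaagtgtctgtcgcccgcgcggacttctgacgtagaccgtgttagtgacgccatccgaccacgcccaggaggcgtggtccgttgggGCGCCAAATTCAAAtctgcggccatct
The Mcm6 stretch held 3 E2F words, of which 2 overlapped each other, and the Top2a stretch held 3 CHR words and 4 CCAAT words. Kif15, a spindle kinesin, was the only mitosis gene with an E2F word, and the word directly adjoined its CHR. Words of different motifs overlapped in 1 case over all windows of the 44 genes, a CCAAT and an E2F word after the start site of Mcm7.

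Longer genes among the 44 tended to have more UMIs. Across the genes, which are not independent replicates, log10 UMIs and log10 gene length had a Pearson correlation of 0.78 over 44 genes, against 0.54 with the length of the exons. Diaph3, a formin that builds actin filaments in cytokinesis, had the most UMIs (4037 in both libraries) and the longest gene (486 kb, chr14:86655367-87141235). Per kb of gene it had 8.31 UMIs, whereas Pcna had 140 UMIs per kb on a gene of 4.15 kb, Top2a 113, Mki67 94.9, Prc1 82.6 and Kif23 82.3. Pola1, the replication gene with most UMIs (3463), spans 327 kb and had 10.6 UMIs per kb. Genes with few UMIs, such as Aurkb with 187 and Mcm2 with 190, were the least precise, and levels of different genes are compared only per kb. Only Anln overlapped another gene on the same strand, Gm48646, to which 78 UMIs were assigned separately, 46 in WT and 32 in HIF-1α KO.

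**Figure D1:**
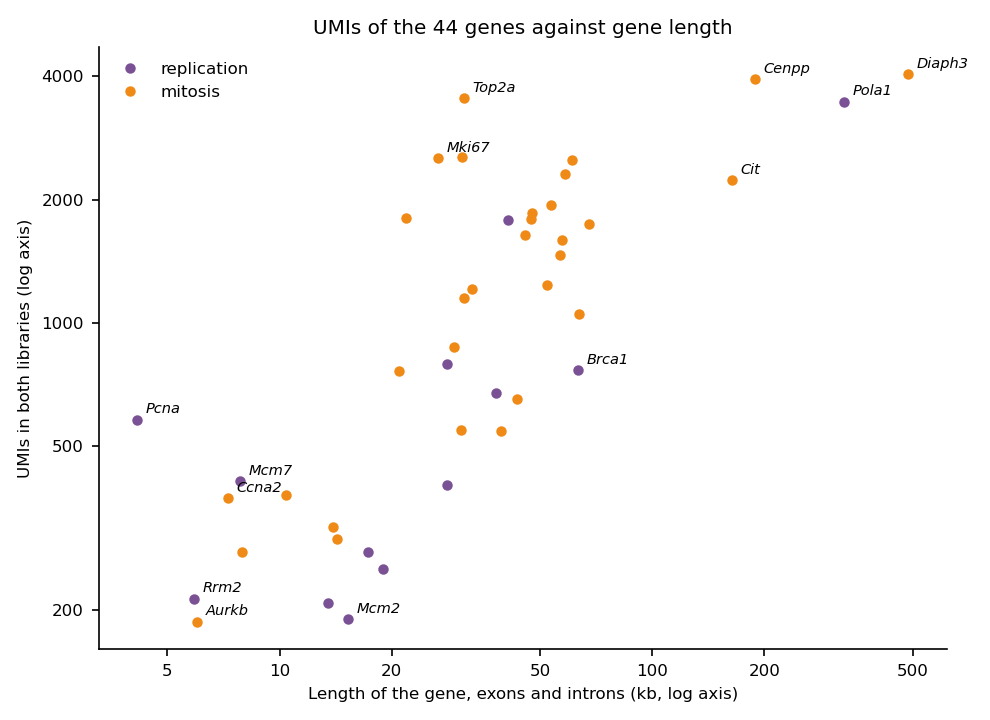
UMIs of each of the 44 genes in both libraries together against the length of the gene in kb, both on log axes, with replication and mitosis genes in different colours. Long genes such as Diaph3 and Pola1 were among those with most UMIs, as was the much shorter Top2a. Short genes such as Aurkb, Rrm2 and Mcm2 were among those with fewest.

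Over all nuclei, the summed level of the 44 genes was 2067 CPM (2042 to 2091) in WT and 1267 CPM (1252 to 1281) in HIF-1α KO, a log2 ratio of -0.71 (-0.73 to -0.68). The replication genes stood at 373 and 215 CPM, respectively, and the mitosis genes at 1694 and 1052 CPM. All 44 genes had a log2 ratio below 0, among them Aurkb with a value so close to 0 that its direction is not given by these counts, and the median was -0.75 beside -0.01 over the 14393 genes with at least 50 UMIs. A total of 31 of the 44 genes were at least 1.5-fold lower in HIF-1α KO, where 16.5% of all genes were, and 0 were at least 1.5-fold higher, where 13.3% of all genes were.

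Among the replication genes, Pola1, the catalytic subunit of DNA polymerase alpha (chrX:93304767-93632155), had 1671 UMIs or 126 CPM (120 to 132) in WT and 1792 UMIs or 75.9 CPM (72.4 to 79.5) in HIF-1α KO. Atad2, a chromatin ATPase with a bromodomain, had 65.9 CPM (61.6 to 70.4) and 38.6 CPM (36.1 to 41.2). Rrm1, the large subunit of ribonucleotide reductase, had 29.8 CPM (26.9 to 32.9) and 17.0 CPM (15.4 to 18.7). All 3 intervals lay apart between the libraries, with log2 ratios of -0.73, -0.77 and -0.81. Dtl, which targets the licensing factor Cdt1 for destruction, stood at 26.8 CPM (24.1 to 29.8) and 13.5 CPM (12 to 15). Brca1, a homologous recombination gene, stood at 25.5 CPM (22.8 to 28.4) and 18.1 CPM (16.5 to 19.9). Pcna had one of the ratios closest to 0, with 18.2 CPM (16.0 to 20.6) in WT and 14.4 CPM (12.9 to 16.0) in HIF-1α KO, so that its intervals met at the edge. The 6 helicase genes together had 70.6 CPM (66.1 to 75.3) in WT and 34.1 CPM (31.8 to 36.5) in HIF-1α KO, a log2 ratio of -1.05 (-1.19 to -0.91), and Mcm5 alone had 11.4 and 4.28 CPM. Rrm2, the small subunit of ribonucleotide reductase whose RNA is restricted to S phase, had 132 UMIs or 9.96 CPM (8.33 to 11.8) in WT and 81 UMIs or 3.43 CPM (2.73 to 4.26) in HIF-1α KO. It shared the lowest log2 ratio of the 44 genes, -1.54, with Ccna2, the gene of cyclin A2, which stood at 17.5 CPM (15.3 to 19.9) and 6.02 CPM (5.07 to 7.09).

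Among the mitosis genes, the 8 chromosome and kinetochore genes together had 615 CPM (602 to 629) in WT and 410 CPM (402 to 418) in HIF-1α KO, a log2 ratio of -0.58 (-0.63 to -0.54). Top2a, the topoisomerase that untangles sister chromatids (chr11:98992943-99024189), had 1693 UMIs or 128 CPM (122 to 134) in WT and 1835 UMIs or 77.7 CPM (74.2 to 81.4) in HIF-1α KO. Mki67, which coats mitotic chromosomes and is the usual marker of proliferation, had 85.5 CPM (80.6 to 90.7) and 58.8 CPM (55.7 to 62.0). Cenpp, a subunit of the inner kinetochore, had 126 CPM (120 to 133) and 95.2 CPM (91.3 to 99.2), the log2 ratio closest to 0 among the 5 genes with most UMIs (-0.41). Cenpe, the kinetochore motor, stood at 87.9 CPM (83.0 to 93.1) and 56.6 CPM (53.6 to 59.8), Knl1, the scaffold of the outer kinetochore, at 76.9 CPM (72.3 to 81.8) and 54.7 CPM (51.7 to 57.8), and Cenpf, a large kinetochore protein, at 66.7 CPM (62.3 to 71.2) and 41.0 CPM (38.5 to 43.7). The WT interval lay above the HIF-1α KO interval for each of these 6 genes. Cenpe and Knl1 are also among the marker genes by which the study named its intestinal stem cell nuclei.

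The 9 cytokinesis genes stood at 617 CPM (604 to 631) in WT and 371 CPM (364 to 379) in HIF-1α KO. Diaph3 had 150 CPM (143 to 157) and 86.8 CPM (83.0 to 90.6), Kif23, a motor of the central spindle, 90 CPM (84.9 to 95.2) and 57.1 CPM (54.1 to 60.3). Cit, a kinase of the midbody, had 75.3 CPM (70.7 to 80.1) and 52.3 CPM (49.4 to 55.3), and Kif20b, a kinesin of late cytokinesis, 72.1 CPM (67.6 to 76.8) and 41.7 CPM (39.2 to 44.4). All 4 were lower in HIF-1α KO with intervals apart. Aurkb, the kinase of the chromosomal passenger complex, was the exception with 68 UMIs or 5.13 CPM (3.98 to 6.5) in WT and 119 UMIs or 5.04 CPM (4.18 to 6.03) in HIF-1α KO, a log2 ratio of -0.02 (-0.47 to 0.43). Aspm, a spindle pole gene, had the ratio next closest to 0, with 16.7 CPM (14.6 to 19.1) and 13.6 CPM (12.2 to 15.2), a log2 ratio of -0.30 (-0.55 to -0.04). The 9 spindle genes together had a log2 ratio of -0.73 (-0.79 to -0.67) and the 4 cyclins one of -1.22 (-1.35 to -1.08), so the cyclins and the helicase genes lay lowest among the groups.

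**Figure D2:**
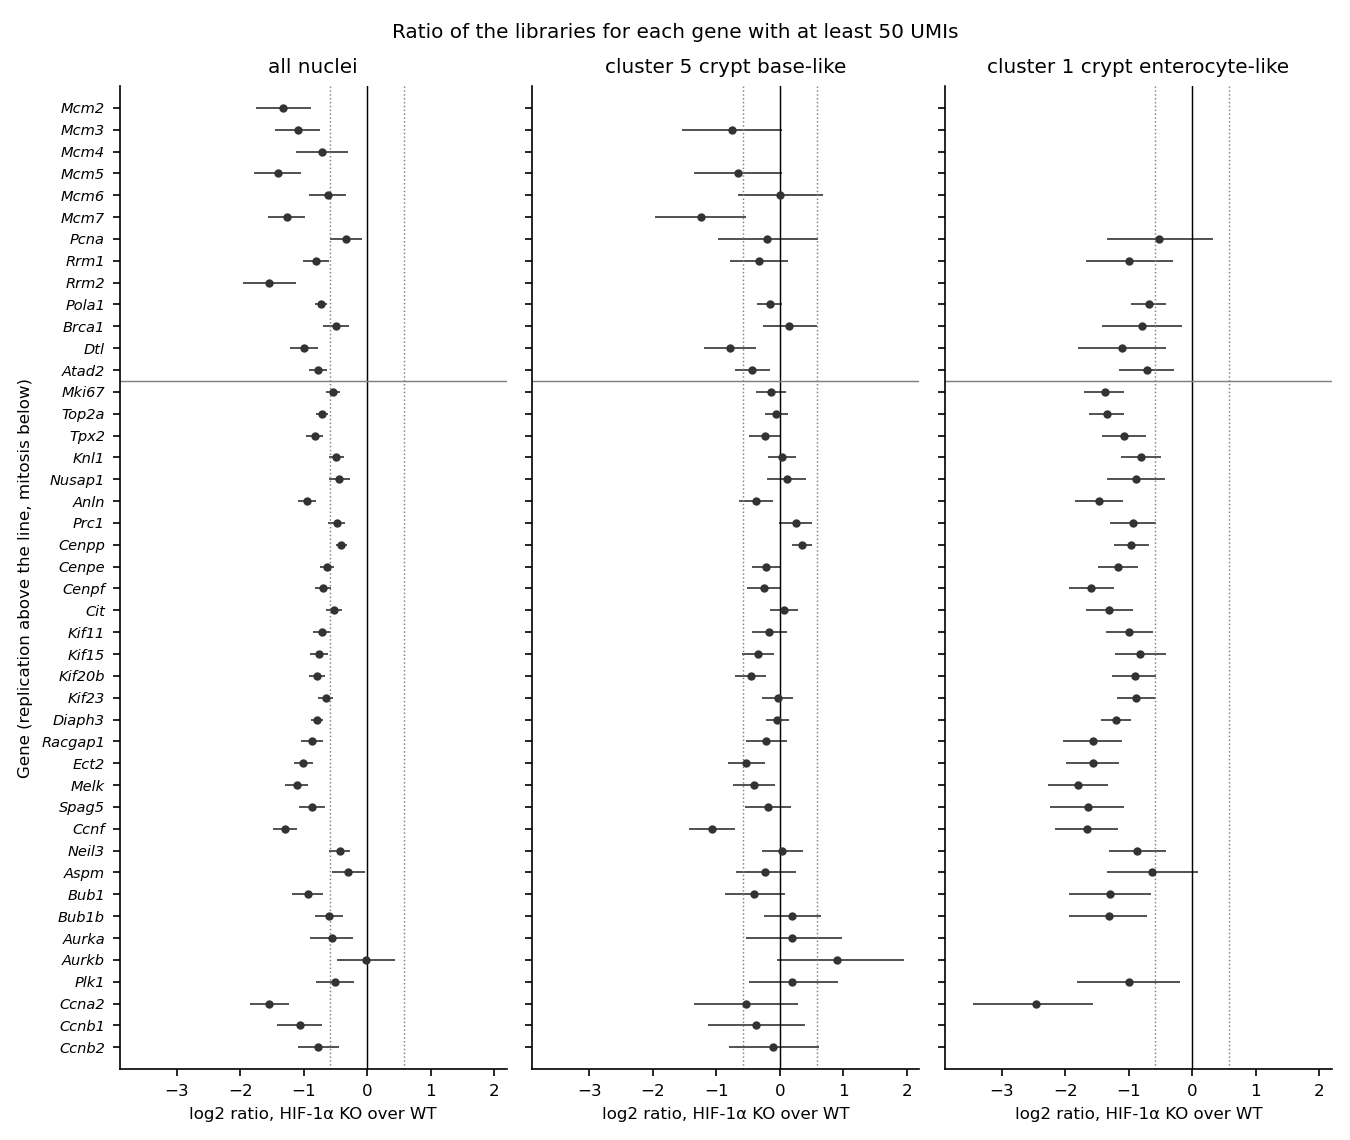
Log2 ratio of HIF-1α KO over WT for each gene with at least 50 UMIs in the nuclei shown, with exact conditional 95% intervals for counting error; dotted lines mark 1.5-fold. In all nuclei every point lies below 0, in the crypt base-like cluster 5 most points lie near 0, and in the crypt enterocyte-like cluster 1 all shown points lie below 0.

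The counts of the other cell cycle genes are read against the 16.5% of all genes that were lower and the 13.3% that were higher, and 3 of the 4 lists had more lower and fewer higher genes than that. Of 65 other replication genes, 31 were at least 1.5-fold lower and 1 was higher (Gins4, of the replicative helicase, with 27 and 75 UMIs), with a median log2 ratio of -0.56, and of 88 other mitosis genes with at least 50 UMIs, 48 were lower and 0 higher, with a median of -0.63. Those with most UMIs mostly had ratios closer to 0 than the 44 genes. Prim2, a primase subunit, had 97.4 and 55.5 CPM in WT and HIF-1α KO, but Pold3, a subunit of DNA polymerase delta, had 90 and 74.6 CPM, Rfc1, of the clamp loader, 67.3 and 65.5 CPM, and the fork repair gene Mms22l 55.1 and 49.2 CPM. Among the mitosis genes Cep128, a centriole gene, had 135 and 84.3 CPM and the condensin gene Smc4 108 and 82.1 CPM. The microtubule polymerase gene Ckap5 had 210 and 166 CPM, and the centromere chaperone gene Hjurp 147 and 137 CPM. Of 29 genes that regulate entry into the cycle, 12 were lower and 0 higher (median -0.38), with Rb1, the retinoblastoma gene, at 205 and 227 CPM, E2f3 at 160 and 124 CPM, Ccnd3 at 140 and 124 CPM and Lin52 at 136 and 125 CPM. Genes linked to leaving the cycle had a median of 0.17, with 2 of 13 lower and 1 higher, neither above the share of all genes. The lower ones were Cdkn2c, an inhibitor of cyclin D kinases, with 6.64 and 2.41 CPM, and Gadd45a, a stress response gene, with 30.8 and 18.7 CPM. The higher one was Mxd1, a repressor that replaces Myc in differentiating cells, with 275 CPM in WT and 566 CPM in HIF-1α KO, whereas Btg1 had 123 and 102 CPM, Trp53inp1 62.2 and 83.6 CPM and Ccng2 58.2 and 65.5 CPM.

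To see which nuclei carried the transcripts, nuclei were clustered without any cell cycle or histone gene and clusters were named from markers of other kinds. The summed level was highest in cluster 5, crypt base-like nuclei led by Smoc2 and Lgr5, in both libraries. Cenpp and Cit were also among the 10 leading genes of this cluster, although neither had been used to form it. It was 5220 CPM (5088 to 5354) in 334 WT nuclei and 4763 CPM (4674 to 4853) in 445 HIF-1α KO nuclei. Cluster 0 followed in WT with 3802 CPM (3695 to 3910), and B cell-like nuclei (cluster 13) followed in HIF-1α KO with 2827 CPM (2653 to 3010). Cluster 0 had no name, because too few markers of any class led it. Its closest list was that of the crypt base, with a mean log2 marker ratio of 0.47, against 1.19 in cluster 5. Only 1 marker of that list was raised enough to count, where naming needed at least 3. The leading genes were Taco1, Gm47283, Tiam1, Gm42418, Mki67, Lrig1, Cenpe, Gm26917, Sulf2 and Kif2c, of which only Lrig1 is on that list. Mki67, Cenpe and Kif2c led it although they had been kept out of the clustering. The lowest values were those of neuron-like nuclei in WT, with 524 CPM (415 to 653), and of surface absorptive-like nuclei of cluster 7 in HIF-1α KO, with 335 CPM (315 to 355). The order at the low end is not given by these counts, because intervals overlapped. Cluster 7 had 653 CPM (607 to 701) in WT. In HIF-1α KO, cluster 8 had 346 CPM (320 to 373), cluster 11 had 367 CPM (332 to 404) and neuron-like nuclei had 366 CPM (287 to 461).

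**Figure D3:**
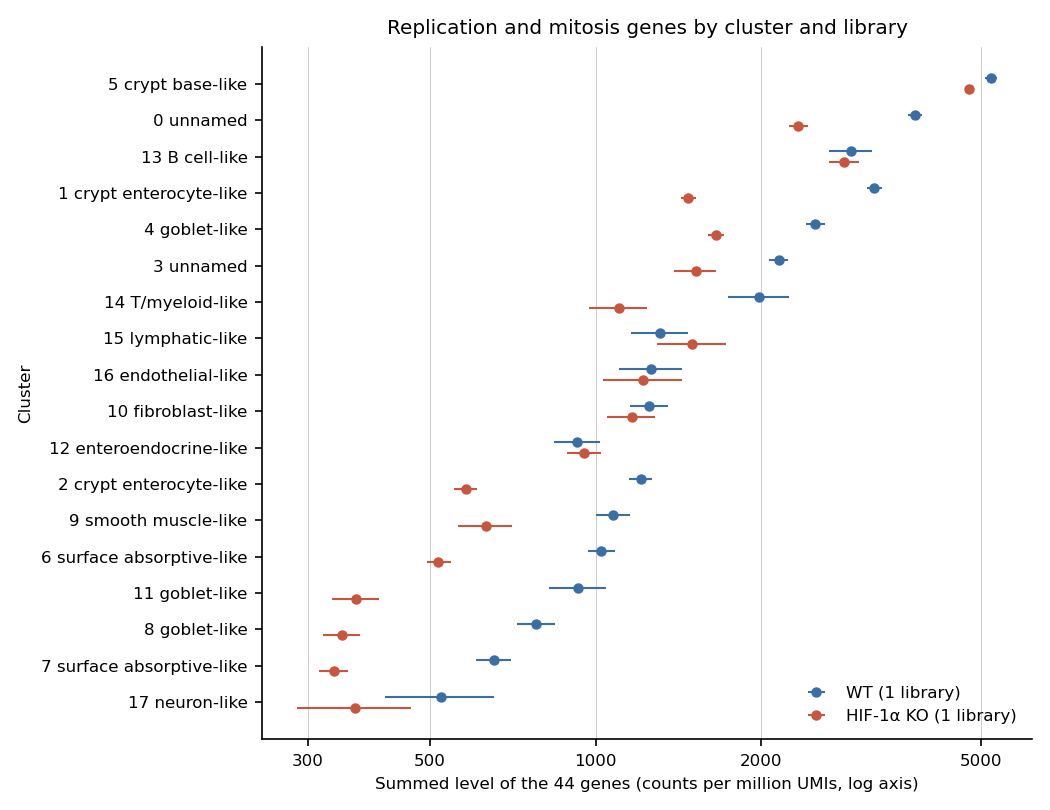
Summed level of the 44 genes in CPM (log axis) for each cluster with at least 20 nuclei in each library, WT and HIF-1α KO, 1 library each, with exact 95% Poisson intervals for counting error. Crypt base-like nuclei lie highest in both libraries, at 5220 and 4763 CPM, and the libraries lie far apart in crypt enterocyte-like, mature goblet-like and surface absorptive-like clusters but overlap in B cell-like, fibroblast-like, enteroendocrine-like, endothelial-like and lymphatic-like nuclei.

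For single genes the pattern was the same in most cases. Cluster 5 held the highest level of 34 of the 44 genes in WT and of 31 in HIF-1α KO, among clusters with at least 20 nuclei in each library. The exceptions in both libraries were Mcm2, Mcm4, Mcm6, Pcna, Rrm2, Dtl, Ccna2 and Ccnb1, in WT also Aurka and Aurkb, and in HIF-1α KO also Mcm3, Mcm5, Mcm7, Pola1 and Atad2. Many of these exceptions rest on few UMIs with overlapping intervals, as for Mcm2 in HIF-1α KO, with 11.5 CPM (3.14 to 29.5) from 4 UMIs in B cell-like and 11.4 CPM (7.44 to 16.7) in crypt base-like nuclei, so the order of clusters is not given for them. Relative to the mature goblet-like nuclei of cluster 8, led by Clca1, the median gene was higher in the crypt base-like nuclei by 2.66 on the log2 scale in WT, with single genes from 0.65 (Pcna) to 4.51 (Ccnf, the F-box cyclin F). In HIF-1α KO the median was 3.71 and the range 1.09 (Pcna) to 5.77 (Ccnf). Both Ccnf values are imprecise, because it had 4 UMIs in WT and 2 UMIs in HIF-1α KO mature goblet-like nuclei. The median over the replication genes was 2.01 in WT and 2.95 in HIF-1α KO, below the 2.69 and 3.79 of the mitosis genes.

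Genes differed in how closely they followed division. Top2a had 327 CPM (294 to 361) in WT crypt base-like nuclei, 68.9 CPM (50.9 to 91.0) in smooth muscle-like, 60.3 CPM (40.7 to 86.0) in fibroblast-like, 35.9 CPM (20.9 to 57.5, 17 UMIs) in enteroendocrine-like (cluster 12) and 13.3 CPM (1.61 to 47.9, 2 UMIs) in neuron-like nuclei. Pola1 stood at 280 CPM (250 to 312) in WT crypt base-like nuclei and still at 133 CPM (102 to 170) in enteroendocrine-like, 112 CPM (89.1 to 140.0) in smooth muscle-like 149 CPM (117 to 187) in fibroblast-like and 46.5 CPM (18.7 to 95.7, 7 UMIs) in neuron-like nuclei. In HIF-1α KO, Pola1 had 250 CPM in crypt base-like, 134 CPM in enteroendocrine-like and 116 CPM in fibroblast-like nuclei. Pcna did not follow this order, with 20.2 CPM (12.8 to 30.3) in WT crypt base-like nuclei, 28.4 CPM (19.9 to 39.3) in cluster 0, 20.6 CPM (13.2 to 30.7) in surface absorptive-like nuclei of cluster 7 and 8.99 CPM (4.79 to 15.4) in crypt enterocyte-like nuclei of cluster 2. In HIF-1α KO it had 8.21 CPM (4.69 to 13.3) in mature goblet-like nuclei, 32.3 CPM (22.4 to 45.2) in cluster 0, 37.5 CPM (20.0 to 64.1) in B cell-like nuclei and 17.5 CPM (12.5 to 23.9) in crypt base-like nuclei. Across 36 combinations of 18 clusters and 2 libraries, the correlation of the log2 level of a gene with that of all 44 genes ran from 0.53 for Plk1 and Ccna2 to 0.97 for Top2a, which is part of the sum. These correlations describe the clusters, which share libraries and differ in depth, and low values belong mostly to genes with few UMIs.

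**Figure D4:**
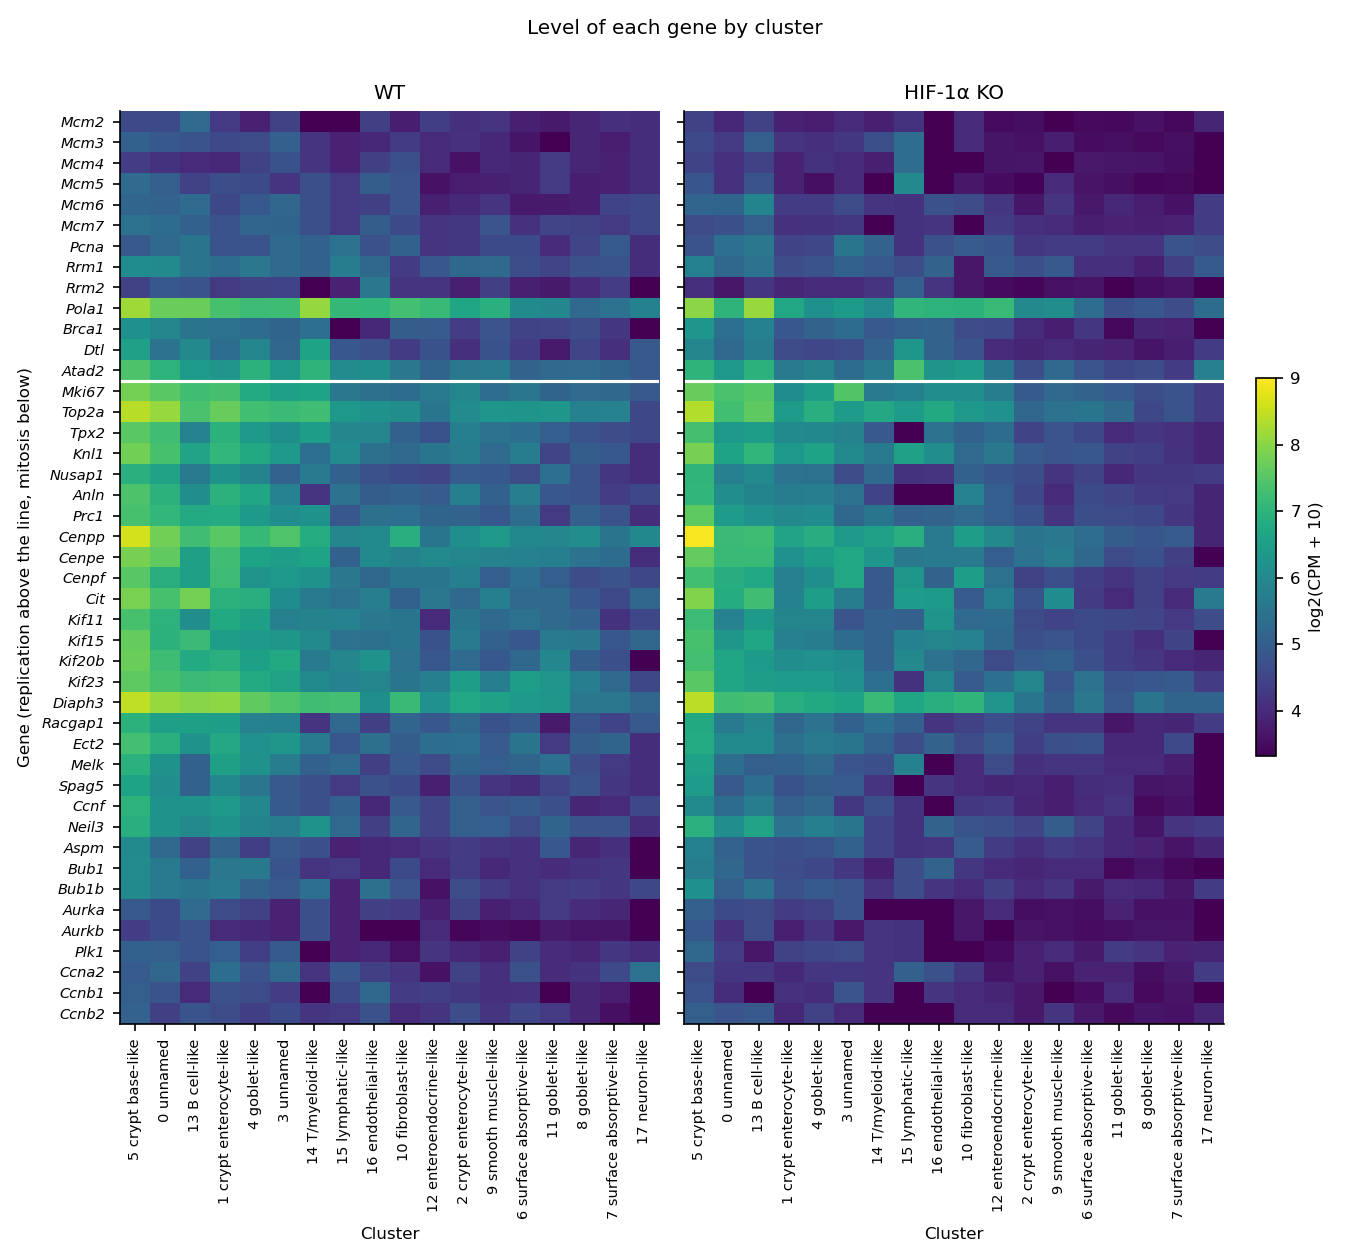
Level of each of the 44 genes, as log2 of CPM plus 10, in each cluster with at least 20 nuclei in each library (columns, ordered by summed level) for WT and HIF-1α KO. The crypt base-like column is brightest for most genes, Pola1 and Diaph3 are visible in nearly all columns, and the MCM genes and cyclins, at the top and the bottom, are dark in most columns.

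Within crypt base-like nuclei the libraries were closer to each other, with a log2 ratio of the summed level of -0.13 (-0.18 to -0.09). Of the 41 genes with at least 50 UMIs there, 5 were at least 1.5-fold lower in HIF-1α KO, where 7.15% of all genes were, and 1 was higher, where 15.2% were. The median log2 ratio was -0.20 over these genes and 0.11 over all genes, and scaling by the latter gave -0.24 for the sum. Top2a had 327 CPM in WT and 313 CPM in HIF-1α KO, Mki67 214 and 194 CPM, Diaph3 340 and 329 CPM and Kif23 182 and 177 CPM. Cenpp was higher in HIF-1α KO, with 379 CPM (344 to 417) against 483 CPM, a log2 ratio of 0.35 (0.19 to 0.51). The lower genes were Mcm7 (34.2 and 14.5 CPM), Ccnf (118 and 56.1 CPM), Dtl (85.1 and 49.5 CPM), Mcm3 (23.7 and 14 CPM) and Mcm5 (29.8 and 18.8 CPM). The higher one, Aurkb, rested on 12 and 45 UMIs. These genes were named after their values were seen, since they are the few past 1.5-fold. The replication genes had a log2 ratio of -0.32 (-0.44 to -0.20) and the mitosis genes one of -0.10 (-0.15 to -0.05). The sign of the summed ratio depended on where the cluster was drawn, with 0.06 at a clustering resolution of 0.5, 0.04 at a resolution of 2 and -0.88 when cell cycle genes were kept in the clustering.

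In clusters 0, 1 and 4 the libraries were further apart. Cluster 1, crypt enterocyte-like nuclei led by Htr4 and Cftr, had 3207 CPM (3110 to 3307) in WT and 1473 CPM (1426 to 1521) in HIF-1α KO. Cluster 2 was named from the same marker list but was led by Gsdmc2, Gsdmc3 and Cyp2c68. It had 1207 CPM (1151 to 1265) in WT and 581 CPM (554 to 609) in HIF-1α KO, a log2 ratio of -1.05. For clusters 1 and 2 together the log2 ratio was -1.13, and -0.48 when each nucleus was assigned to this class by its own marker score. Of the 33 genes with at least 50 UMIs, 32 were at least 1.5-fold lower in cluster 1 and 0 higher, where 9.43% and 13.3% of all genes were. Top2a had 196 CPM in WT and 77.0 CPM in HIF-1α KO, Mki67 151 and 58.0 CPM, Cenpf 138 and 45.9 CPM and Melk, a mitotic kinase, 84.3 and 24.2 CPM, and only Pcna, with 23 and 31 UMIs, stayed within 1.5-fold. In cluster 1 the replication genes were less far apart than the mitosis genes, with log2 ratios of -0.79 (-0.96 to -0.61) and -1.18 (-1.25 to -1.11). In cluster 0, with 2332 CPM (2240 to 2426) in HIF-1α KO, 24 of 33 genes were lower and 0 higher, where 7.86% and 17.7% of all genes were. Top2a had 267 CPM in WT and 145 CPM in HIF-1α KO there, and Mki67 176 and 156 CPM. In early goblet-like nuclei (cluster 4, led by Slc12a8, Spdef and Reg4), with 2506 CPM (2405 to 2610) and 1655 CPM (1601 to 1709), 13 of 29 genes were lower and 0 higher, where 8.03% and 13% of all genes were. There, unlike in cluster 1, the replication genes were further apart than the mitosis genes, with log2 ratios of -1.15 (-1.33 to -0.96) and -0.49 (-0.57 to -0.41). Dtl had 50.8 CPM in WT and 13.2 CPM in HIF-1α KO, Pola1 139 and 61.9 CPM, Cenpe 87.6 and 80.1 CPM and Knl1 98.4 and 87.4 CPM. The unnamed cluster 3 reached 0 markers of its closest list, that of B cells. Its leading genes were AY036118, Igkc, Gpx2, Gm19951, Rps9, Gm48099, Vip, Rpsa, Lars2 and Gm42418. It had 2149 CPM (2062 to 2239) in 727 WT nuclei and 1519 CPM (1389 to 1657) in 165 HIF-1α KO nuclei. The median depths there were 1390.0 and 1823.0 UMIs. Mki67 went the other way there, with 82.9 CPM in WT and 166 CPM in HIF-1α KO, a log2 ratio of 1.0 (0.49 to 1.5), whereas Top2a had 137 and 78.5 CPM.

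A difference of similar size was present in clusters with little sign of division. Mature goblet-like nuclei of cluster 8 had 780 CPM (719 to 844) in WT and 346 CPM (320 to 373) in HIF-1α KO, a log2 ratio of -1.17 (-1.33 to -1.01). Surface absorptive-like nuclei of cluster 7 had a log2 ratio of -0.96 (-1.10 to -0.83) and smooth muscle-like nuclei one of -0.77 (-0.96 to -0.58). The median depth of these nuclei was lower in WT than in HIF-1α KO, with 3241.5 and 5472.0 UMIs in cluster 8 and 1925.0 and 2397.5 in smooth muscle-like nuclei. RNA from outside the nucleus, which droplets take up with each nucleus, is read as a low level in all types, and its part in these differences was not tested. In contrast, the libraries were within counting error of each other in enteroendocrine-like nuclei (926 and 953 CPM), B cell-like nuclei (2904 and 2827 CPM), fibroblast-like nuclei (1251 and 1162 CPM) and endothelial-like nuclei (1259 and 1220 CPM). The other immune cluster, T cell- and myeloid-like nuclei (cluster 14), had 1979 CPM (1740 to 2241) and 1100 CPM (973 to 1239), a log2 ratio of -0.85 (-1.10 to -0.59). In enteroendocrine-like nuclei assignment by marker score gave a log2 ratio of -0.51 instead of 0.04. Lymphatic-like nuclei (1307 and 1495 CPM) were also within counting error for the sum, but their replication genes had 323 CPM from 68 UMIs in WT and 558 CPM from 72 UMIs in HIF-1α KO, a log2 ratio of 0.79 (0.29 to 1.29).

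The levels were also weighted by the shares of the other library, for the clusters as drawn here without cell cycle genes, where dividing and other nuclei of a type share a cluster. With the WT level in each cluster and the shares of UMIs over clusters of the HIF-1α KO library, the summed level would be 1919 CPM, against 2067 CPM as measured in WT, whereas the HIF-1α KO levels at the WT shares give 1392 CPM. The unnamed clusters held 30.1% of nuclei in WT and 11.9% in HIF-1α KO. Without them the log2 ratio was -0.62.

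Counts per nucleus were used to tell few strongly marked nuclei from a low level in many. Every nucleus was reduced at random to 1000 UMIs, for which 0 nuclei of WT and 63 of HIF-1α KO were too shallow, and the number of the 44 genes with a UMI was counted. At least 3 genes were found in 26.0% of nuclei (24.7 to 27.2) in WT and 11.6% (10.7 to 12.6) in HIF-1α KO, with exact binomial intervals, and without thinning in 51.7% and 39.3%. This limit has a background, since 12% (8.52 to 16.2) of smooth muscle-like nuclei in WT and 5.19% (2.11 to 10.4) in HIF-1α KO passed it, at median depths of 1925.0 and 2397.5 UMIs against 2930.0 and 4447.0 in crypt base-like nuclei. Of fibroblast-like nuclei 10.4% (6.58 to 15.5) in WT and 14.8% (8.71 to 22.9) in HIF-1α KO passed it, the other direction, with overlapping intervals. At least 5 genes were found in 10.9% of nuclei (10.0 to 11.8) in WT and 6.70% (6.0 to 7.46) in HIF-1α KO, but only in 0.997% (0.206 to 2.88) and 0 of 135 smooth muscle-like nuclei, which allows a share of up to 2.22%. The shares were 2.49% (0.813 to 5.71) and 1.85% (0.225 to 6.53) in fibroblast-like and 3.8% (0.79 to 10.7) and 3.03% (0.0767 to 15.8) in endothelial-like nuclei. In neuron-like nuclei the counts were 0 of 27 and 0 of 22, which allow shares of up to 11.1% and 13.6%. Both limits divide a range and not a cell type, as 903 WT and 434 HIF-1α KO nuclei had 2 genes, 465 and 143 had 3, 271 and 86 had 4, and 166 and 65 had 5.

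In crypt base-like nuclei at least 5 genes were found in 41.6% (36.3 to 47.1) in WT and 33.0% (28.7 to 37.6) in HIF-1α KO, and at least 3 in 62.9% (57.4 to 68.1) and 44.9% (40.3 to 49.7). The log2 ratio of the shares with at least 3 genes was -0.48, and -1.57 when cell cycle genes were kept in the clustering. The 2 libraries differed most at the low end of the distribution, because 26 of 334 WT nuclei but 108 of 445 HIF-1α KO nuclei had none of the 44 genes. In crypt enterocyte-like nuclei of cluster 1 the share with at least 5 genes was 17.1% (13.8 to 21.0) in WT and 5.87% (4.02 to 8.23) in HIF-1α KO, in cluster 0 it was 23.5% (20.4 to 26.7) and 11.3% (8.27 to 14.9), and in early goblet-like nuclei 12.6% (9.28 to 16.6) and 7.64% (5.44 to 10.4). For at least 3 genes in clusters 1 and 2 together, the log2 ratio of the shares was -1.76, and -0.39 without thinning. In B cell-like nuclei at least 5 genes were found in 12% (6.36 to 20.0) and 14.8% (9.49 to 21.5), and at least 3 in 33.0% (23.9 to 43.1) and 22.1% (15.8 to 29.7), so that the direction differed between the limits and the intervals overlapped at both. In mature goblet-like nuclei only 4 of 196 and 1 of 313 nuclei reached 5 genes, and in surface absorptive-like nuclei of cluster 7 only 1 of 252 and 0 of 450, which allows a share of up to 0.667%.

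**Figure D5:**
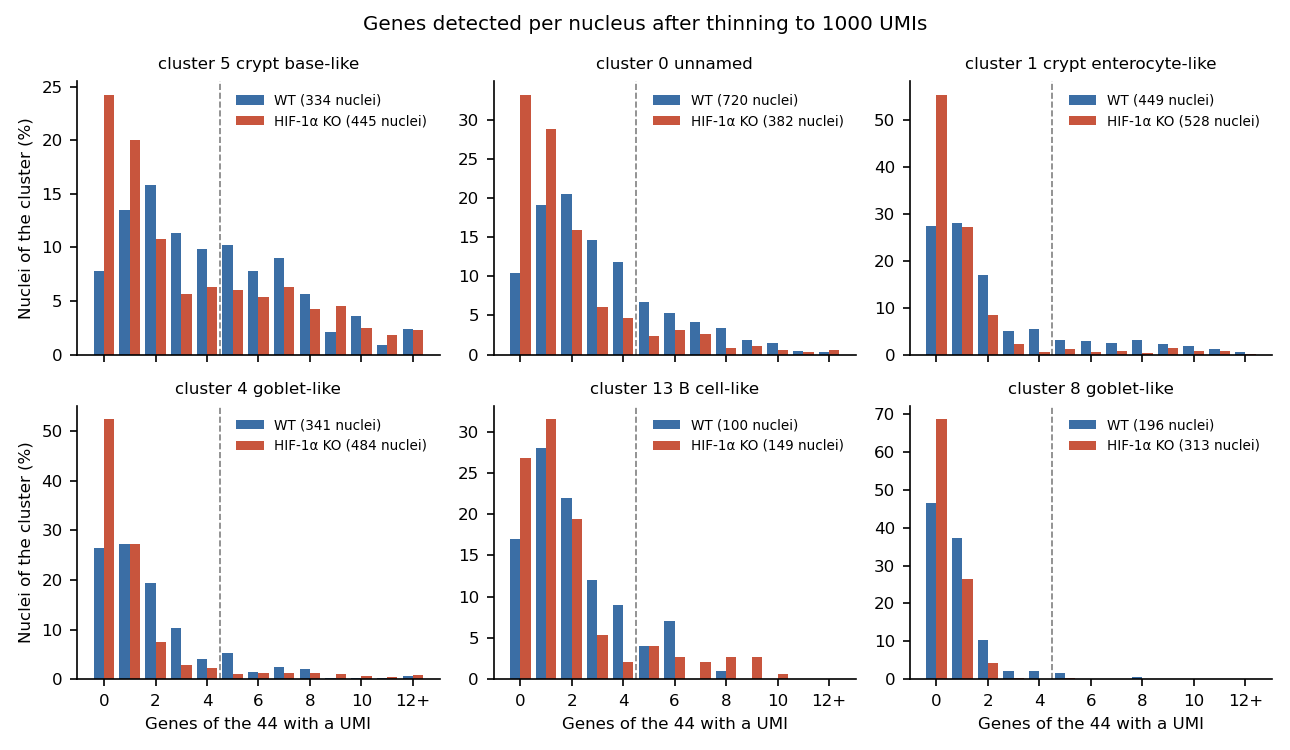
Share of nuclei by the number of the 44 genes with a UMI after thinning each nucleus to 1000 UMIs, in 6 clusters, WT and HIF-1α KO; the dashed line marks the limit of at least 5 genes. Crypt base-like nuclei reach far to the right in both libraries, whereas mature goblet-like nuclei (cluster 8) stay almost entirely to its left, and HIF-1α KO nuclei are more often at 0.

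Of the 532 WT nuclei with at least 5 genes, 31.8% (27.8 to 35.9) were in cluster 0, 26.1% (22.4 to 30.1) were crypt base-like, 14.5% (11.6 to 17.8) were in cluster 1 and 8.08% (5.91 to 10.7) were early goblet-like. Of the 311 such nuclei in HIF-1α KO, 47.3% (41.6 to 53.0) were crypt base-like, 13.8% (10.2 to 18.2) were in cluster 0, 11.9% (8.52 to 16.0) were early goblet-like and 9.97% (6.87 to 13.8) were in cluster 1. B cell-like nuclei made up 2.26% (1.17 to 3.91) in WT and 7.07% (4.49 to 10.5) in HIF-1α KO. These shares also depend on the number of nuclei of each cluster in the library, and crypt base-like nuclei made up 6.84% in WT and 9.46% in HIF-1α KO.

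The nuclei with at least 5 of the 44 genes were compared with those with at most 1 in the same cluster, on genes that the count did not use. In crypt base-like nuclei the 89 other mitosis genes summed to 8535 CPM in the former and 1805 CPM in the latter in WT, and to 9627 and 1228 CPM in HIF-1α KO. The 65 other replication genes differed less, with 3446 and 2025 CPM in WT and 3486 and 1078 CPM in HIF-1α KO. The count itself rests mainly on mitosis genes. Of the crypt base-like nuclei with at least 5 genes, 41.0% in WT and 44.9% in HIF-1α KO had no replication gene, and 0 lacked a mitosis gene. The smaller difference of the replication genes therefore cannot be told apart from how the nuclei were chosen. The summed crypt base markers were level between the 2 kinds of nuclei, with 3073 CPM (2923 to 3228) and 3160 CPM (2928 to 3405) in WT and 2502 CPM (2399 to 2608) and 2509 CPM (2405 to 2616) in HIF-1α KO. Smoc2 had 181 CPM (146 to 221) and 175 CPM (123 to 240) in WT, but 281 CPM (247 to 318) and 212 CPM (182 to 244) in HIF-1α KO, with intervals apart. Lgr5 was present in both kinds, with 40.8 CPM (25.2 to 62.4) and 55.1 CPM (28.5 to 96.3) in WT and 75.3 CPM (58.4 to 95.6) and 44.4 CPM (31.6 to 60.7) in HIF-1α KO.

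Early goblet-like nuclei with at least 5 genes carried fewer goblet transcripts than those with at most 1, with 6454 CPM (6036 to 6892) against 10356 CPM (10068 to 10651) in WT and 5709 CPM (5408 to 6023) against 10029 CPM (9879 to 10181) in HIF-1α KO. Muc2, the main secreted mucin, had 1969 CPM (1742 to 2218) and 4017 CPM (3838 to 4202) in WT and 1208 CPM (1072 to 1357) and 2973 CPM (2891 to 3056) in HIF-1α KO. Spdef, the factor of goblet maturation, stood in HIF-1α KO at 386 CPM (311 to 474) and 447 CPM (415 to 480), which overlap, and in WT at 262 CPM (183 to 362) and 497 CPM (436 to 565). In B cell-like nuclei the marker sum was higher in nuclei with at least 5 genes, with 12480 CPM (11194 to 13873) against 7394 CPM (6767 to 8064) in WT and 16341 CPM (15416 to 17308) against 13167 CPM (12643 to 13707) in HIF-1α KO. Single markers differed in direction. Pax5, the factor of B cell identity, had 1783 CPM (1319 to 2357) against 883 CPM (675 to 1134) in WT and 1671 CPM (1384 to 1999) against 1237 CPM (1080 to 1410) in HIF-1α KO, and Bank1, a B cell scaffold gene, had 218 CPM (80.1 to 475) against 1577 CPM (1295 to 1903) and 870 CPM (667 to 1116) against 3394 CPM (3131 to 3674). Bcl6, the factor of germinal centre B cells, had 400 CPM (200 to 716) against 130 CPM (59.5 to 247) in 12 and 45 WT nuclei and 618 CPM (449 to 829) against 94.3 CPM (54.9 to 151) in 22 and 87 HIF-1α KO nuclei. In the 5 enteroendocrine-like nuclei of HIF-1α KO with at least 5 genes, the marker sum was 8959 CPM (8030 to 9965) against 15242 CPM (14952 to 15536), and Lgr5 had 6 UMIs in them. No doublet caller was run, and the part of doublets in these values was not tested.

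Detection of single genes was then compared among the crypt base-like nuclei after thinning. Atad2 was found in 21.9% (16.1 to 28.7) of the WT nuclei with at least 3 mitosis genes and in 10.7% (4.03 to 21.9) of those with none, and in HIF-1α KO in 14.5% (9.71 to 20.6) and 4.20% (1.56 to 8.91). The intervals of Atad2 overlapped in WT and lay apart in HIF-1α KO. Those of Pola1 overlapped in both libraries, with 20.2% (14.6 to 26.9) and 21.4% (11.6 to 34.4) in WT and 21.8% (16.0 to 28.6) and 14% (8.76 to 20.8) in HIF-1α KO. Cenpp, counted against the other mitosis genes, was found in 38.2% (30.7 to 46.1) and 3.45% (0.420 to 11.9) in WT and in 51.7% (44 to 59.4) and 4.03% (1.49 to 8.56) in HIF-1α KO. The helicase genes were each found in at most 8.93% of any of these nuclei, which is too few to place them.

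Outside the cell cycle lists, the 10 genes whose level most resembled that of the 44 genes across the 36 combinations of cluster and library were taken by correlation among 10971 genes with at least 200 UMIs. They were Wdhd1, Pif1, Rmi2, Gm47283 and Nucks1 with a Pearson correlation of 0.90, Knstrn, Cntrob, Chek2 and Tmpo with 0.88, and Rad18 with 0.87. Several of them act in DNA replication or repair, such as Wdhd1, a fork protein, Pif1, a helicase, Rmi2, of the Bloom complex, Chek2, a checkpoint kinase, and Rad18, a ubiquitin ligase of damage tolerance. Knstrn and Cntrob belong to the kinetochore and the centrosome, and Tmpo encodes a lamin-binding protein of the nuclear envelope. Wdhd1 had 133 CPM in WT and 74.5 CPM in HIF-1α KO crypt base-like nuclei and 21.9 and 13.3 CPM in mature goblet-like nuclei. Gm47283, which had the most UMIs of the 10 (16540, not set against gene length), had 1532 and 871 CPM in crypt base-like and 253 and 116 CPM in mature goblet-like nuclei. The genes were chosen for this likeness, so the correlations are a description.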

How the data were processed

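Nuclei from snap-frozen colon were profiled by droplet 3′ RNA sequencing. The deposited tables hold whole-number UMI counts per gene and nucleus, which the authors made with Cell Ranger 7.0.1 on mm10 (versions as in the submitters' processing notes and the study's methods). Whether intronic reads were counted is not given in the sources used here. The tables hold 4896 WT and 4772 HIF-1α KO barcodes with 13492810 and 25489277 UMIs.

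Nuclei with 400 to 5000 genes and at most 10% mitochondrial UMIs were kept, as in the study's methods, which use the upper limit against doublets. No doublet caller was run. Clusters were rebuilt with Seurat 5.3.0 (R 4.3.3; log-normalisation, 2000 variable genes, anchor integration, 30 components, resolution 1), leaving out 323 cell cycle and histone genes, which gave 21 clusters. A cluster was named from at least 3 marker genes, so names can differ from those of the study, and clusters 0, 3 and 18 stayed unnamed.

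Counts were summed per library and cluster with Python 3.11.15, numpy 2.4.6, pandas 2.3.3 and scipy 1.17.1. Intervals are exact at 95% (Poisson for levels, conditional for ratios, Clopper-Pearson for shares) and cover counting error only. The limit for a count of 0 is 3 counts. edgeR 4.0.16 gave only TMM factors for 1 alternative scaling. Ratios of single genes were read at 50 UMIs or more. With 1 library per genotype there was no test and no p-value. Positions and lengths are from GENCODE M21 on GRCm38, which holds 32158 of the 32285 gene identifiers, and promoters from RefSeq.

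Values in both libraries are given for the 6 replication and the 10 mitosis genes with most UMIs, the 3 highest and 3 lowest ratios, the 4 genes with most UMIs of each other cell cycle list and the 10 genes most alike across clusters (log2 of CPM plus 10). Genes and lists were chosen with earlier results of these data known. Alternatives changed filter, weighting, scaling, depth, clustering and limits. The programs were tested on simulated data.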

Additional observations from a re-analysis of the deposited data

How the results depend on the processing

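The log2 ratio of the summed level over all nuclei, -0.71, stayed between -0.71 and -0.69 with all barcodes, equal weight for each nucleus, other scaling, thinning, without Diaph3 and with a minimum of 50 UMIs. It was -0.62 without the unnamed clusters 0, 3 and 18 and -0.57 with the HIF-1α KO levels at the WT shares of UMIs, which were both chosen after seeing the data. In crypt base-like nuclei (-0.13) the ratio turned to 0.06 at a resolution of 0.5 and to 0.04 at a resolution of 2. It was -0.25 after thinning and -0.24 with scaling by the median gene. With cell cycle genes kept in the clustering it was -0.88, and the class held 363 WT and 305 HIF-1α KO nuclei. Without integration it was -0.06, but the class held 37 WT and 930 HIF-1α KO nuclei, so unlike sets of nuclei were compared. The class held 334 and 445 nuclei in the main clustering, 146 and 212 at a resolution of 0.5 and 160 and 216 at 2. In both crypt enterocyte-like clusters together (-1.13) the log2 ratio was -0.81 without integration and -1.23 at a resolution of 0.5. It was -0.48 with each nucleus assigned by its own marker score and -1.19 after thinning. In goblet-like nuclei (-0.83) it was -1.13 with cell cycle genes kept, -0.60 without integration and -1.03 by marker score. In surface absorptive-like nuclei (-1.0) it was -0.83 without integration, -0.86 at a resolution of 0.5 and -0.80 at 2. Assignment by marker score gave -0.51 in enteroendocrine-like nuclei (0.04), -0.51 in immune-like nuclei (-0.25) and -0.81 in mesenchymal-like nuclei (-0.44). The immune-like class held 1099 WT and 815 HIF-1α KO nuclei by marker score, against 168 and 281 by cluster. Most nuclei behind the value of -0.51 were therefore outside the immune-like clusters. Scaling by the median gene gave -0.43 in immune-like nuclei, and thinning -0.22 in mesenchymal-like nuclei. The log2 ratio of the share of all nuclei with at least 3 of the 44 genes (-1.16) was -0.70 with at least 5 genes, -0.40 without thinning, -0.82 at 500 UMIs, -0.99 with mitosis genes only and -0.90 without the unnamed clusters. In crypt base-like nuclei (-0.48) it was -1.57 with cell cycle genes kept. In crypt enterocyte-like nuclei (-1.76) it was -0.39 without thinning and -0.85 by marker score, and in goblet-like nuclei (-1.36) -0.47 without thinning, -0.79 at 500 UMIs and -2.14 with cell cycle genes kept. The number of genes past 1.5-fold over all nuclei, 4291, was 1875 past 2-fold. In enteroendocrine-like nuclei the ratio was also -0.02 after thinning and with scaling by the median gene. The other log2 ratios kept their sign under the alternatives run, and the cause of these changes was not tested. No paired analysis was possible because each genotype has 1 library and the labels carry no replicate numbers. Depth limits the genes with fewest UMIs most, which were Aurkb (187), Mcm2 (190), Mcm4 (208) and Rrm2 (213). Levels of single genes in small clusters rest on few UMIs and are read with their intervals.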
